A study of Mus musculus with 12 samples.

Results

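Genes that mark endothelial cells or carry vascular growth signals were followed in mouse iWAT, the inguinal white fat depot under the skin. The 10 members were Cdh5, Pecam1, Vwf, Kdr, Flt1, Tek, Tie1, Vegfa, Angpt1 and Angpt2, chosen by symbol, as known genes of this cell type and pathway. All 10 had 1 row among the 33200 gene rows of the table, and all 10 were among the 16656 genes that passed the filter on low counts. The Nrep-/- group (KO) held 3 mice with a CRISPR/Cas deletion of Nrep in the whole body, and the wild-type group (WT) held 3 C57BL/6 mice. Every animal was 16 weeks old and was kept on a standard diet under specific-pathogen-free conditions, with no other allele or agent named in the labels. The RNA was poly(A)-selected from whole tissue, so the values average over adipocytes, vessels, immune cells and stroma. A change in the number of endothelial cells and a change in RNA per endothelial cell cannot be told apart in such bulk samples. Liver libraries of the same study (6 samples) are not analysed here.

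Endothelial cells line blood vessels, and in fat they also pass lipid from the blood to adipocytes. VEGF-A, made by adipocytes and other cells, acts on the receptor tyrosine kinases VEGFR2 (Kdr), which carries most of the growth signal, and VEGFR1 (Flt1), which binds VEGF-A tightly and can act as a decoy. In the angiopoietin system, ANGPT1 activates the receptor TIE2 (Tek) and keeps vessels stable. ANGPT2 usually opposes ANGPT1 at TIE2 and accompanies vessel remodelling, and TIE1 is a partner of TIE2 with no well-established ligand of its own.

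The promoters of the 4 receptor genes are shown because these receptors join both signalling systems and differed among themselves in how KO and WT libraries separated. RefSeq entries of build GRCm38.p6 were found for 5 of 10 members, and the 250 bases before the start of the gene are printed 5′ to 3′ on the gene's strand. Capitals mark the letters GGAA, the core bound by ETS factors, and ACAAT, a core bound by SOX factors, on either strand, so that TTCC and ATTGT are capitals too. The Kdr sequence lies at chr5:75978456-75978705 on the minus strand, Flt1 at chr5:147726012-147726261 on the minus strand, Tek at chr4:94739039-94739288 on the plus strand and Tie1 at chr4:118489850-118490099 on the minus strand.
Kdr: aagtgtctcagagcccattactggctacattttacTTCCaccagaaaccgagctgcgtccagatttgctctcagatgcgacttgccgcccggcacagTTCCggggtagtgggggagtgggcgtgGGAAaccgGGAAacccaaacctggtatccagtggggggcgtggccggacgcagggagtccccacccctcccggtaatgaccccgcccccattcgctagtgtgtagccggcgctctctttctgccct
Flt1: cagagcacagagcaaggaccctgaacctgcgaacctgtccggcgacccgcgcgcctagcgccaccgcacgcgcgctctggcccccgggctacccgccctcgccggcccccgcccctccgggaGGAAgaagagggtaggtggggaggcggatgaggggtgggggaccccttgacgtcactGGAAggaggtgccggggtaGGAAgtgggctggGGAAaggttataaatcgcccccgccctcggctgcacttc
Tek: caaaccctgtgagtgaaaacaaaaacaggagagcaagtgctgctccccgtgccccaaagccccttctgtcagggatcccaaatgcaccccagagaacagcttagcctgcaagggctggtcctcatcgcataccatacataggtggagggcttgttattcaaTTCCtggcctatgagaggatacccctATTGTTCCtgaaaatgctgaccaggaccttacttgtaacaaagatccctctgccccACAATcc
Tie1: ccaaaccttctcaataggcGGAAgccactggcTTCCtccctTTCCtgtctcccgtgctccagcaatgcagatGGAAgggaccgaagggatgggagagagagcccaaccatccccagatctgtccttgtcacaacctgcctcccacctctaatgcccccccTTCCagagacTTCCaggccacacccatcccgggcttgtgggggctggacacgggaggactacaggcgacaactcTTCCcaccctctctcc

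The ETS core occurred 4 times before Kdr, 4 times before Flt1, 2 times before Tek and 7 times before Tie1. It is a short word, and 93.4% of 32851 promoter windows of the same length held it at least once. The SOX core occurred 2 times before Tek, once sharing bases with an ETS core, and not in the windows of Kdr, Flt1 and Tie1, while 27.7% of all windows held it. These are matches of letters and not mapped binding sites, and no measurement of binding was made.

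The labels were checked on Nrep, which had 2, 2 and 5 counts in KO libraries and 1404, 1640 and 1300 counts in WT libraries (log2 fold change -8.72, edgeR adjusted p = 1.82e-05). Libraries held between 17970451 and 20369345 counts. In the sums of adipocyte, muscle and macrophage markers, KO replicate 2 stood nearer to WT than the other KO libraries did. The summed level of 12 mature adipocyte markers was 30677, 20812 and 36560 CPM (counts relative to library size, scaled with TMM factors) in KO replicates 1, 2 and 3 and 15854 to 19830 CPM in WT. Skeletal muscle transcripts, summed over 15 markers, stood at 4459, 782 and 4135 CPM in the same KO libraries and at 52.9 to 66.9 CPM in WT. How much muscle RNA adds to the values of other genes in KO libraries was not tested. The sum of 12 macrophage markers was 2466 to 3012 CPM in KO, highest in KO replicate 2, and 3774 to 5195 CPM in WT. In the sum of 12 stromal progenitor markers KO replicate 2 stood furthest from WT instead. That sum was 6570, 4927 and 9076 CPM in KO replicates 1, 2 and 3 and 8404 to 10340 CPM in WT. Values of the members are therefore given with and without KO replicate 2. That library was singled out by its values in these same data, so a gene that passes only without it has no separate support from that fit.

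No member passed the test between KO and WT. In the quasi-likelihood test of edgeR (Benjamini-Hochberg, adjusted p under 0.05), 0 of 10 members were called, where 1.03% of all tested genes were, 144 higher and 27 lower in KO (129 and 49 when libraries were scaled by their totals alone). At an unadjusted p under 0.05 there were 4 members, Cdh5, Kdr, Flt1 and Tie1, against 22.6% of all tested genes. DESeq2 called Cdh5 and Kdr, against 10.9% of all tested genes, and limma-voom called 0 members. In 9 of 10 members the log2 fold change of KO over WT was above 0, as it was in 44.2% of all tested genes, and the exception was Angpt2. The median was 0.35 over the members and -0.06 over all tested genes. Scaling by library totals alone, without TMM factors, put the median of all genes at -0.19, and Pecam1 then also had a negative value.

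**Figure D1:**
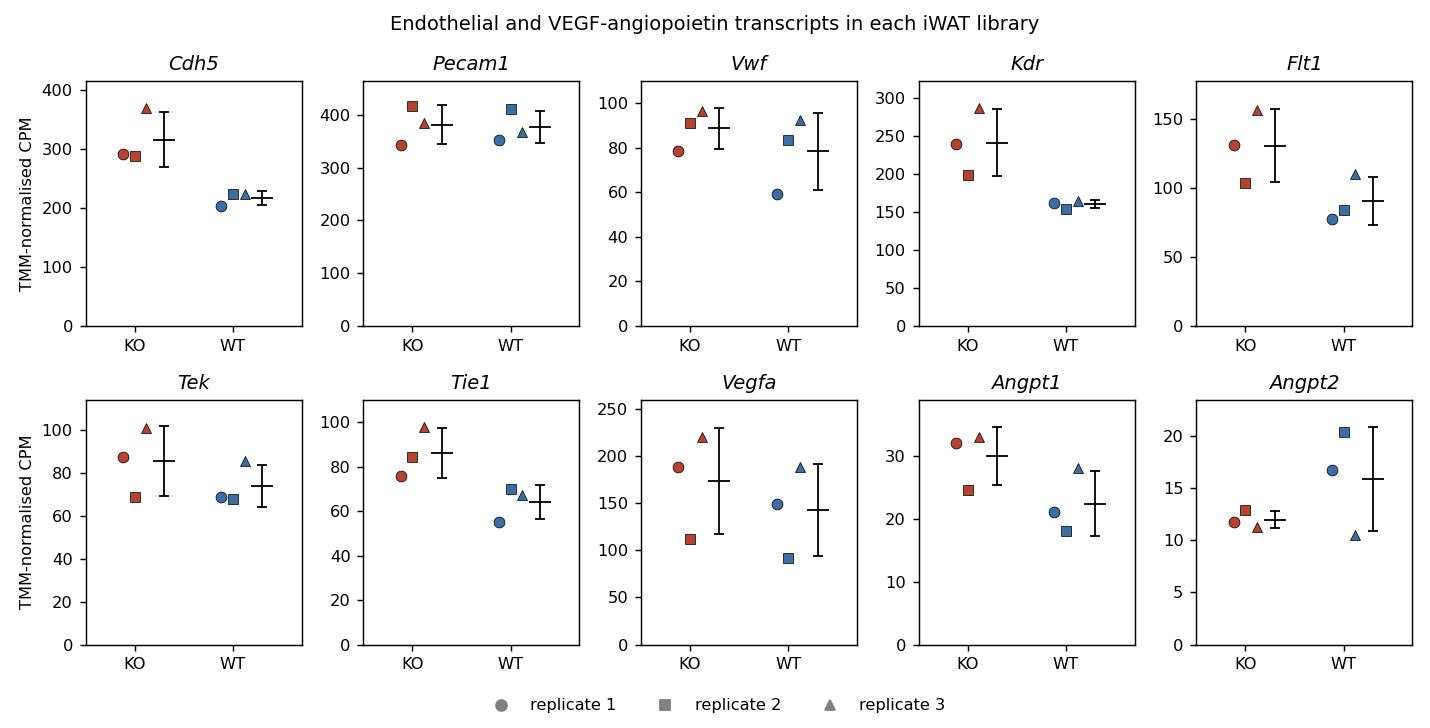
TMM-normalised CPM of each member in the 3 KO (red) and 3 WT (blue) iWAT libraries, with a bar for mean ± SD and symbols for replicates. Cdh5, Kdr and Tie1 have every KO library above every WT library, Pecam1 lies at 343 to 416 CPM in KO and 352 to 411 CPM in WT, and Angpt2 is low in all KO libraries and in WT replicate 3.

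Cdh5 and Kdr were the members in which KO and WT stood furthest apart. Cdh5 encodes VE-cadherin, the adhesion protein of endothelial junctions, and had 291, 287 and 369 CPM in KO replicates 1, 2 and 3 and 203, 223 and 224 CPM in WT replicates 1, 2 and 3. Every KO library lay above every WT library, with KO replicate 3 highest. The means were 316 ± 46.2 CPM in KO and 217 ± 11.9 CPM in WT (SD, n = 3 each), a 1.46-fold ratio with a 95% interval of 1.14 to 1.86 that is not corrected for multiple tests. Its log2 fold change of 0.54 (SE 0.152) did not pass in edgeR (adjusted p = 0.0965). Without KO replicate 2 it was 0.66 with adjusted p = 0.0148. That fit called 25.3% of all tested genes and 4 of 10 members. When any other library was left out, the edgeR adjusted p of Cdh5 was 0.140 to 0.344.

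Pecam1, which encodes the junction protein CD31 and is also made by platelets and some leukocytes, was the member with the closest means. It had 343, 416 and 385 CPM in KO and 352, 411 and 368 CPM in WT. The groups overlapped fully, and both the lowest and the highest library were KO. Means were 381 ± 36.8 CPM in KO and 377 ± 31.0 CPM in WT (SD, n = 3 each), with a log2 fold change of 0.02 (SE 0.148, edgeR adjusted p = 0.953), and 0.01 without KO replicate 2. Its 95% interval of -0.33 to 0.36 still allows a difference of about 1.28-fold upward or to 0.798 of the WT level.

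Vwf encodes von Willebrand factor, which endothelial cells store and release and which platelets also carry. It had 78.4, 91.0 and 96.6 CPM in KO and 59.3, 83.6 and 92.4 CPM in WT. WT replicate 1 was the low library and the other 5 overlapped. Its log2 fold change was 0.18 (SE 0.181, edgeR adjusted p = 0.567), and it was 0.22 without KO replicate 2, 0.01 without WT replicate 1 and 0.31 without WT replicate 3. Estimated counts of Vwf were not whole numbers in 4 of 6 libraries, and how reads shared with other genes were assigned is not given.

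Of the VEGF receptors, Kdr had 238, 198 and 286 CPM in KO and 162, 154 and 164 CPM in WT. The WT libraries lay close together, and all 3 KO libraries stood above them, KO replicate 2 nearest. Means were 241 ± 43.9 CPM in KO and 159.9 ± 5.03 CPM in WT (SD, n = 3 each), a 1.51-fold ratio with a 95% interval of 1.16 to 1.95. The log2 fold change of 0.59 (SE 0.160) missed the threshold in edgeR (adjusted p = 0.0904). Without KO replicate 2 it passed, at 0.77 with adjusted p = 0.0071, in a fit that called 25.3% of all tested genes. When any other library was left out, the edgeR adjusted p of Kdr was 0.136 to 0.309. Flt1 had 131, 104 and 157 CPM in KO and 77.2, 83.7 and 110.1 CPM in WT. Here the groups overlapped, because KO replicate 2 lay below WT replicate 3. On the log2 scale the fold change of Flt1 was 0.53 (SE 0.197, edgeR adjusted p = 0.168), close in size to that of Kdr but with a wider spread. Without KO replicate 2 it was 0.73 with adjusted p = 0.0206, in that same fit. When any other library was left out, the edgeR adjusted p of Flt1 was 0.114 to 0.449.

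Of the angiopoietin receptors, Tie1 separated the genotypes without overlap and Tek did not. Tie1 had 75.8, 84.3 and 98.0 CPM in KO and 55.2, 69.9 and 67.2 CPM in WT. The KO libraries all lay above the WT libraries, by a narrow margin between KO replicate 1 and WT replicate 2. Its log2 fold change was 0.42 (SE 0.147, edgeR adjusted p = 0.147), and 0.50 with adjusted p = 0.0518 without KO replicate 2. Tek had 87.5, 68.5 and 100.8 CPM in KO and 68.7, 67.8 and 85.3 CPM in WT. KO replicate 2 fell among the WT libraries, so the groups overlapped. The log2 fold change of Tek was 0.21 (SE 0.172, edgeR adjusted p = 0.476), with a 95% interval of -0.19 to 0.61, and it was 0.41 without KO replicate 2 (adjusted p = 0.0677) and 0.077 without KO replicate 3.

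Across the 10 members, Cdh5, Kdr and Tie1 had every KO library above every WT library, a pattern seen in 15.2% of all tested genes, and 0 members had every KO library below, as 13.1% of tested genes did. For Cdh5 and Kdr the separation also held with DESeq2 size factors, upper-quartile factors and library totals alone. For Tie1 it was lost with library totals alone, where KO replicate 1 had 69.7 CPM, against 73.7 CPM in WT replicate 2. KO replicate 3 was the highest library for 8 of 10 members, and KO replicate 2 was the lowest KO library for 6 of 10. The sum over the 7 endothelial members (all but the 3 ligands) was 1245, 1249 and 1491 CPM in KO and 976, 1094 and 1111 CPM in WT. Its difference was 0.32 on the log2 scale (exact permutation p = 0.1, two-sided, the smallest that 3 against 3 allows), and 0.18 when libraries were scaled by their totals alone.

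**Figure D2:**
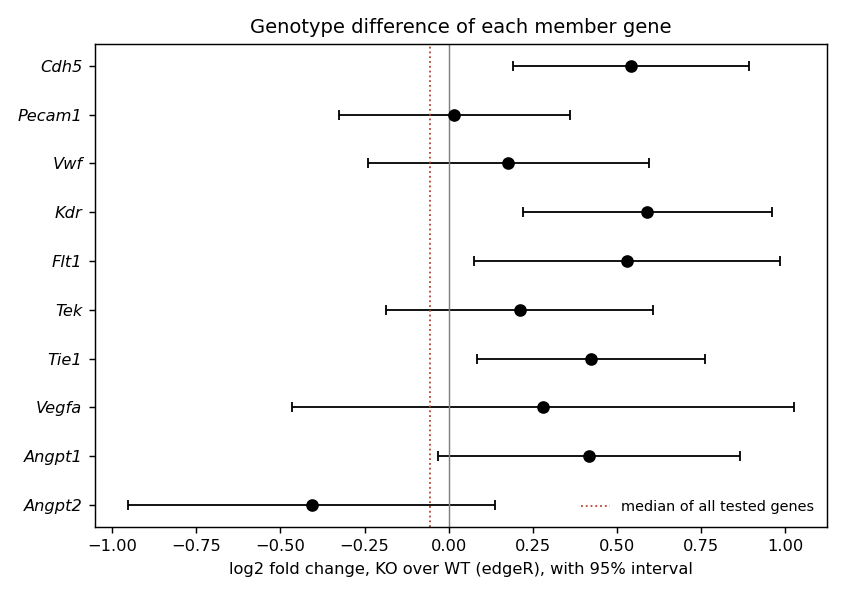
Log2 fold change of KO over WT for each member from edgeR, with its 95% interval, and the median of all tested genes as a dotted line. The intervals of Cdh5, Kdr, Flt1 and Tie1 lie above 0 without correction for multiple tests, and those of the other 6 members include 0.

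Of the ligands, Vegfa varied more within each genotype than between them. It had 189, 112 and 221 CPM in KO and 149, 91.5 and 189 CPM in WT. The replicate numbered 2 was the lowest library in both groups, and the ranges overlapped over most of their length. Means were 174 ± 56.1 CPM in KO and 143 ± 48.8 CPM in WT (SD, n = 3 each). The log2 fold change was 0.28 (SE 0.321, edgeR adjusted p = 0.612), with a 95% interval of -0.47 to 1.03 that spans both a loss and a 2-fold gain. The value was 0.58 without KO replicate 2 and 0.53 without WT replicate 3, against 0.070 without KO replicate 3 and 0.042 without WT replicate 2, and none of these passed the test.

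Angpt1, the activating ligand of TIE2, had 32.2, 24.7 and 33.2 CPM in KO and 21.1, 18.1 and 28.2 CPM in WT. WT replicate 3 lay above KO replicate 2, so the groups overlapped. The log2 fold change was 0.42 (SE 0.194, edgeR adjusted p = 0.247), and 0.60 with adjusted p = 0.0479 without KO replicate 2. That fit called 25.3% of all tested genes. When any other library was left out, the edgeR adjusted p of Angpt1 was 0.117 to 0.533. Angpt2 ran the other way, with 11.8, 12.9 and 11.3 CPM in KO and 16.8, 20.3 and 10.5 CPM in WT. The KO libraries lay close together, and WT replicate 3 was below all of them. Angpt2 rested on 203 to 261 counts per KO library and 220 to 436 counts per WT library. Its log2 fold change was -0.41 (SE 0.236, edgeR adjusted p = 0.334). It was -0.41 without KO replicate 2, -0.63 without WT replicate 3 and -0.19 without WT replicate 2.

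Ratios of 2 members within a library do not depend on how libraries are scaled, and 10 such ratios were computed. The count ratio of Pecam1 to Cdh5 was 1.18, 1.45 and 1.04 in KO and 1.73, 1.84 and 1.64 in WT. All KO libraries were below all WT libraries, by 0.52 on the log2 scale. The ratio of Tek to Cdh5 was 0.301, 0.239 and 0.273 in KO and 0.338, 0.303 and 0.381 in WT, again without overlap, though KO replicate 1 and WT replicate 2 nearly met. Both ratios share Cdh5 as denominator, which by itself had every KO library above every WT library, so they are not separate results. Both differences had an exact permutation p = 0.1 (two-sided) and 0.4 after adjustment over the 10 ratios, and 3 libraries against 3 cannot go below 0.1. By contrast, Kdr to Cdh5 was 0.762 ± 0.0662 in KO and 0.740 ± 0.0530 in WT, and Flt1 to Cdh5 was 0.412 ± 0.0465 in KO and 0.416 ± 0.0660 in WT (SD, n = 3 each). Those means differed by less than the spread between replicates.

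The balance of the angiopoietins was uneven among WT libraries. Angpt2 counts stood at 0.365, 0.521 and 0.340 of Angpt1 counts in KO and at 0.795, 1.12 and 0.373 in WT. WT replicate 3 lay within the KO range, and WT replicates 1 and 2 lay above it. The log2 difference of -0.79 had an exact permutation p = 0.2 (two-sided), and it was -1.23 without WT replicate 3 and -0.44 without WT replicate 2. The ratio of Flt1 to Kdr, the less active to the more active VEGF receptor, was 0.541 ± 0.0150 in KO and 0.564 ± 0.0987 in WT (SD, n = 3 each). Tie1 to Tek, at 1.02 ± 0.187 in KO and 0.874 ± 0.136 in WT, and Vegfa to Kdr, at 0.709 ± 0.126 in KO and 0.888 ± 0.280 in WT, also overlapped.

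**Figure D3:**
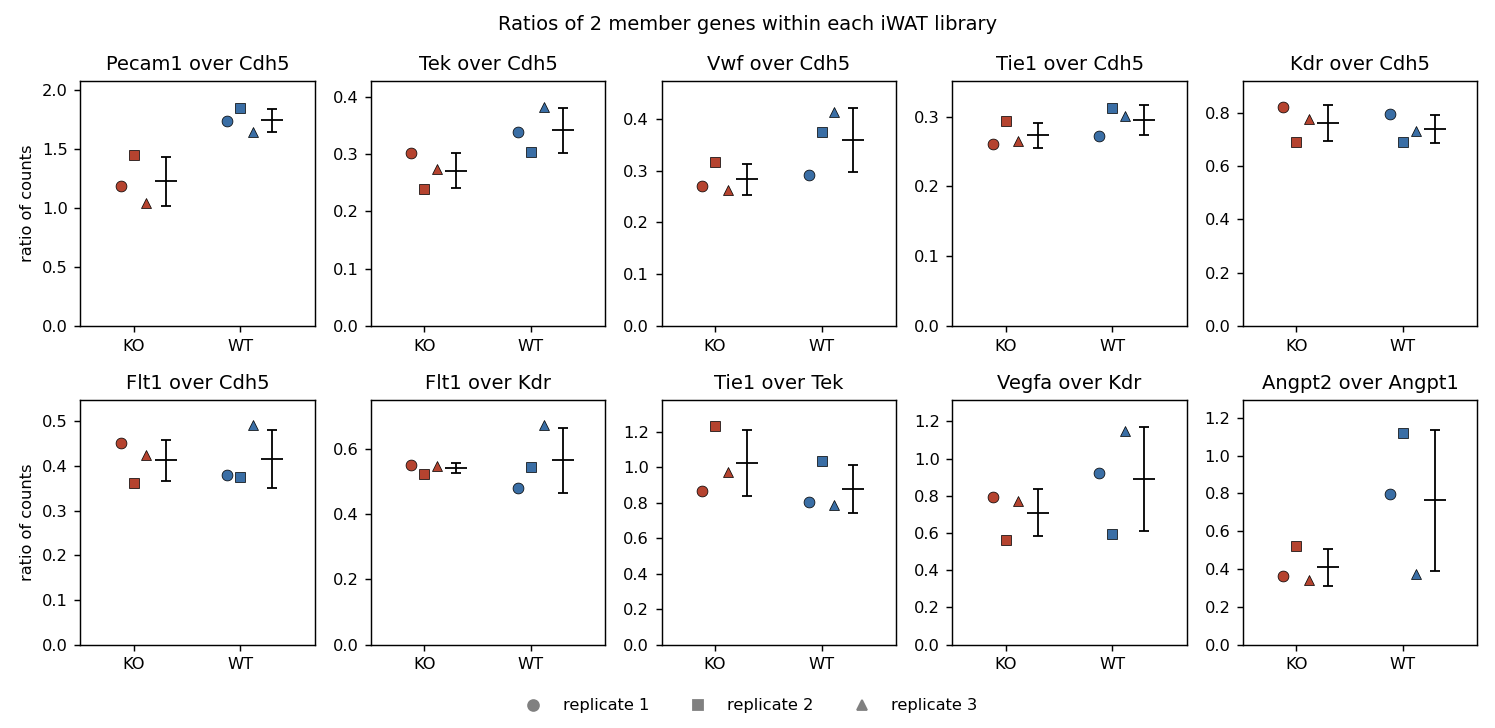
Ratio of the counts of 2 members within each library, KO in red and WT in blue, with mean ± SD (n = 3 each). Pecam1 over Cdh5 and Tek over Cdh5 are lower in every KO library than in every WT library, and the other 8 ratios overlap.

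Levels of different genes were compared per length, as TMM CPM per kilobase of merged exons. The order was much the same in both genotypes. Cdh5 led in KO at 75.1 ± 10.99 CPM per kilobase, followed by Pecam1 at 61.2 ± 5.92, while in WT Pecam1 led at 60.5 ± 4.97, followed by Cdh5 at 51.6 ± 2.84 (SD, n = 3 each). Vegfa came next at 40.5 ± 13.1 in KO and 33.4 ± 11.4 in WT, followed by Kdr at 26.7 ± 4.86 in KO and 17.7 ± 0.557 in WT. Tek and Tie1, at 18.2 ± 3.44 and 17.5 ± 2.28 in KO, differed there by less than their spread, while in WT, at 15.7 ± 2.10 and 13.0 ± 1.59, Tek was above Tie1 in all 3 libraries. Flt1 was at 9.66 ± 1.96 in KO and 6.69 ± 1.29 in WT. Angpt1 and Vwf were both between 4 and 6 CPM per kilobase in either genotype. Angpt2 was lowest, at 3.24 ± 0.219 in KO and 4.30 ± 1.35 in WT. Merged exons take in rare isoforms, so levels of genes with long alternative exons are understated.

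Several members followed the adipocyte markers from library to library. All 12 adipocyte markers were detected and had a positive log2 fold change, with 1 past the edgeR test, 10 in DESeq2 and 0 in limma-voom (Slc2a4, the insulin-responsive glucose transporter, 2.80-fold, edgeR adjusted p = 0.0435), which among the 6 fits that left out 1 library passed without KO replicate 2 or WT replicate 3. Within KO their sum ran from replicate 3 through 1 to 2, and within WT from replicate 3 through 1 to 2 as well. Kdr, Tek, Vegfa and Angpt1 had this same order in both genotypes, 4 of 10 members, as did 7.85% of all tested genes. Cdh5 and Flt1 had it in KO but not in WT, and Angpt2 had the reverse order in each genotype. The part of adipocyte or muscle RNA in these values, that of Slc2a4 included, was not tested. Macrophage markers, which Pecam1 can accompany, had 11 of 12 negative log2 fold changes, with 0 past the edgeR test, 10 at an unadjusted p under 0.05, 6 in DESeq2 and 0 in limma-voom. For both marker lists, the shares over all tested genes were 1.03% in edgeR, 22.6% at an unadjusted p under 0.05 and 10.9% in DESeq2. A positive log2 fold change was seen in 44.2% of all tested genes. Platelet genes were scarce: 4 of 10 passed the filter, with a summed level of 58.7 to 73.4 CPM in KO and 82.0 to 134 CPM in WT. Whether leukocyte or platelet RNA contributes to Pecam1 or Vwf was not tested.

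**Figure D4:**
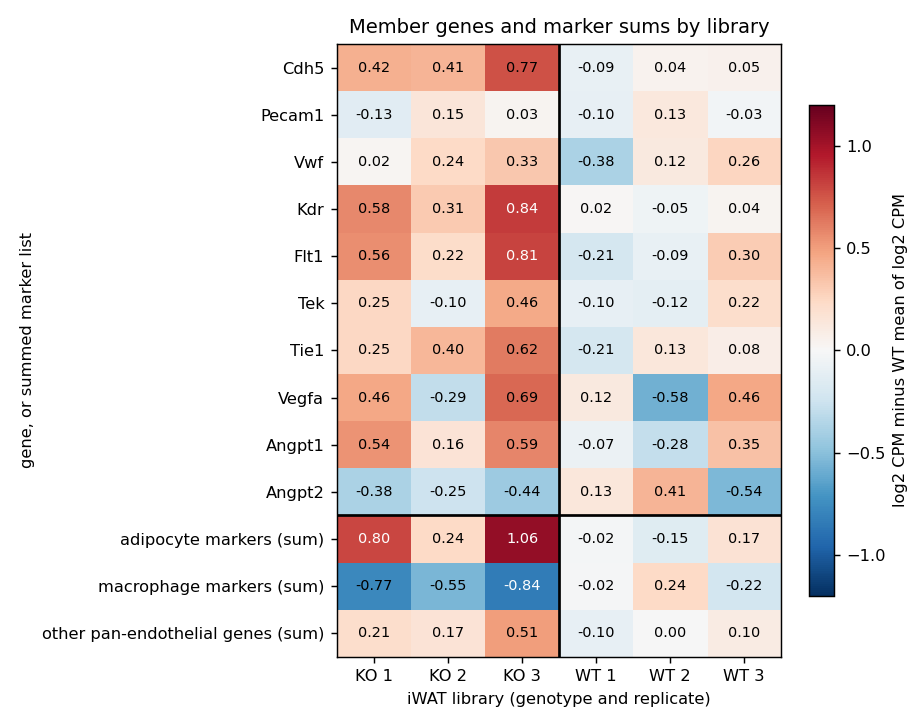
Each cell is the log2 CPM of a member, or of a summed marker list, in 1 library minus the WT mean of log2 CPM, with KO libraries left and WT libraries right. KO replicate 3 has the highest value for 8 of 10 members and for the adipocyte sum at 1.06, and KO replicate 2 has the lowest KO value for Cdh5, Kdr, Flt1, Tek, Vegfa and Angpt1.

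Other endothelial genes gave 2 calls in the same direction as Cdh5 and Kdr. Of 28 further pan-endothelial genes, all detected, 2 rose, 0 fell and 26 did not pass, with a median log2 fold change of 0.19. Log2 fold changes were above 0 in 22 and below 0 in 6, where 44.2% of all tested genes were above 0. Among the 6 were Fli1 and Clec14a, at -0.29 and -0.27 (edgeR adjusted p = 0.308 and 0.341). DESeq2 called 9 of them, all higher, limma-voom called 0, and 11 had an unadjusted p under 0.05 in edgeR. Over all tested genes, edgeR called 1.03%, DESeq2 called 10.9%, and 22.6% had an unadjusted p under 0.05 in edgeR. The 2 called in edgeR were Sox18 and Sox7, transcription factors of the SOXF group that acts in vessel formation. Sox18 had 32.1, 31.1 and 35.6 CPM in KO and 18.9, 16.7 and 15.7 CPM in WT (log2 fold change 0.95, SE 0.127, edgeR adjusted p = 0.0326). Sox7 had 19.4, 17.8 and 26.3 CPM in KO and 8.88, 9.19 and 10.9 CPM in WT (log2 fold change 1.13, SE 0.185, edgeR adjusted p = 0.0458). Both had every KO library well above every WT library, where 15.2% of all tested genes had every KO library above. Each passed in 2 of 6 fits that left out 1 library, those without KO replicate 2 or WT replicate 3.

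Around VEGF and TIE signalling, changes past the test were few. Over all tested genes, edgeR called 1.03%, DESeq2 called 10.9%, and 22.6% had an unadjusted p under 0.05 in edgeR. None of 7 further VEGF ligands, receptors and co-receptors passed in edgeR, with 3 at an unadjusted p under 0.05, 1 in DESeq2 and 0 in limma-voom. These 3 were Vegfb, higher in KO, and Nrp2 and Vegfc, lower in KO. Vegfb, a ligand of VEGFR1, had 59.9, 49.0 and 77.2 CPM in KO and 34.0, 23.5 and 35.8 CPM in WT (log2 fold change 1.00, SE 0.216, edgeR adjusted p = 0.0630). Nrp2, a co-receptor of VEGF receptors, was at 88.0 ± 5.96 CPM in KO and 115 ± 10.1 CPM in WT (SD, n = 3 each; log2 fold change -0.39, edgeR adjusted p = 0.122). Vegfc, the ligand of VEGFR3 that acts on lymphatic vessels, was at 4.36 ± 0.803 CPM in KO and 6.86 ± 1.51 CPM in WT (SD, n = 3 each; log2 fold change -0.65, edgeR adjusted p = 0.175). These 3 genes had no overlap between genotypes, where 15.2% of all tested genes lay higher in KO without overlap and 13.1% lower. The most expressed gene of the list, the co-receptor Nrp1, was at 116 ± 21.3 CPM in KO and 113 ± 6.13 CPM in WT (SD, n = 3 each), with overlap. Of 7 genes around TIE2, 0 passed in edgeR, with 4 at an unadjusted p under 0.05, 3 in DESeq2 (2 higher and 1 lower) and 0 in limma-voom. Ptprb, which encodes the phosphatase VE-PTP that acts on TIE2, was at 283 ± 57.7 CPM in KO and 168 ± 39.9 CPM in WT (SD, n = 3 each; edgeR adjusted p = 0.102). Foxo1, a transcription factor that TIE2 signalling restrains, was at 192 ± 6.36 CPM in KO and 155 ± 6.78 CPM in WT (SD, n = 3 each; edgeR adjusted p = 0.169). Dok2, an adaptor that binds active TIE2 and is also made by leukocytes, lay the other way at 15.0, 20.05 and 13.2 CPM in KO and 41.0, 50.3 and 25.2 CPM in WT (log2 fold change -1.27, edgeR adjusted p = 0.0630). The remaining gene under an unadjusted p of 0.05 was Tnip2, at 15.5 ± 0.716 CPM in KO and 20.3 ± 1.60 CPM in WT (SD, n = 3 each). In Ptprb and Foxo1 every KO library lay above every WT library, as in 15.2% of all tested genes. In Dok2 and Tnip2 every KO library lay below, as in 13.1% of them. Ptprb also belongs to the list of further pan-endothelial genes.

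Of 19 tip cell and Notch genes, 1 rose, 0 fell and 18 did not pass. Log2 fold changes were above 0 in 13 and below 0 in 6, with a median of 0.28. DESeq2 called 7 higher and 1 lower, limma-voom called 0, and 10 had an unadjusted p under 0.05 in edgeR. For this list and the next ones, the shares over all tested genes were 1.03% in edgeR, 10.9% in DESeq2 and 22.6% at an unadjusted p under 0.05. A positive log2 fold change was seen in 44.2% of all tested genes. The gene lower in DESeq2 was Cxcr4, a chemokine receptor that leukocytes also carry, at 50.8 ± 23.0 CPM in KO and 127 ± 21.9 CPM in WT (SD, n = 3 each; edgeR adjusted p = 0.0749). The gene called in edgeR was Dll4, the Notch ligand of tip cells, whose expression is known to follow VEGF signalling, with 22.1, 21.1 and 29.9 CPM in KO and 11.2, 12.9 and 10.99 CPM in WT. This was a 2.08-fold ratio (edgeR adjusted p = 0.0458) without overlap, and it passed in 1 of 6 fits that left out 1 library, the one without KO replicate 2. Esm1 and Apln of the same list had log2 fold changes of -0.10 and -0.03 (edgeR adjusted p = 0.857 and 0.960), with overlap. Of 10 genes of capillary lipid handling, 1 rose and 9 did not pass, and all 10 log2 fold changes were positive with a median of 0.84. DESeq2 called 9 of the 10, all higher, limma-voom called 0, and 9 had an unadjusted p under 0.05 in edgeR. Gpihbp1, which carries lipoprotein lipase across capillary endothelium, was the one called in edgeR, at 179, 149 and 246 CPM in KO and 82.3, 69.3 and 95.02 CPM in WT (edgeR adjusted p = 0.0485). It too passed only without KO replicate 2 among those 6 fits. Several genes of this list, such as Fabp4, Lpl and Aqp7, are also adipocyte genes, and Fabp4 is itself among the adipocyte markers above. The part of adipocyte or muscle RNA in this list was not tested. Vegfa is a target of hypoxia-inducible factors, and of 19 hypoxia response genes 0 passed in edgeR, with 9 at an unadjusted p under 0.05, 3 in DESeq2, 0 in limma-voom and a median log2 fold change of -0.04. The most expressed hypoxia genes, Ldha (glycolysis) and Bnip3 (mitophagy), had log2 fold changes of 0.51 and 0.55 (edgeR adjusted p = 0.184 and 0.315). Among those with a mean of at least 2 CPM, the mitochondrial gene Higd1a and the collagen hydroxylase P4ha1 differed most, at 0.58 and -0.58 (edgeR adjusted p = 0.0547 and 0.0854). Car9, with a mean of 0.713 CPM, had a larger log2 fold change of -1.05 (edgeR adjusted p = 0.193).

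**Figure D5:**
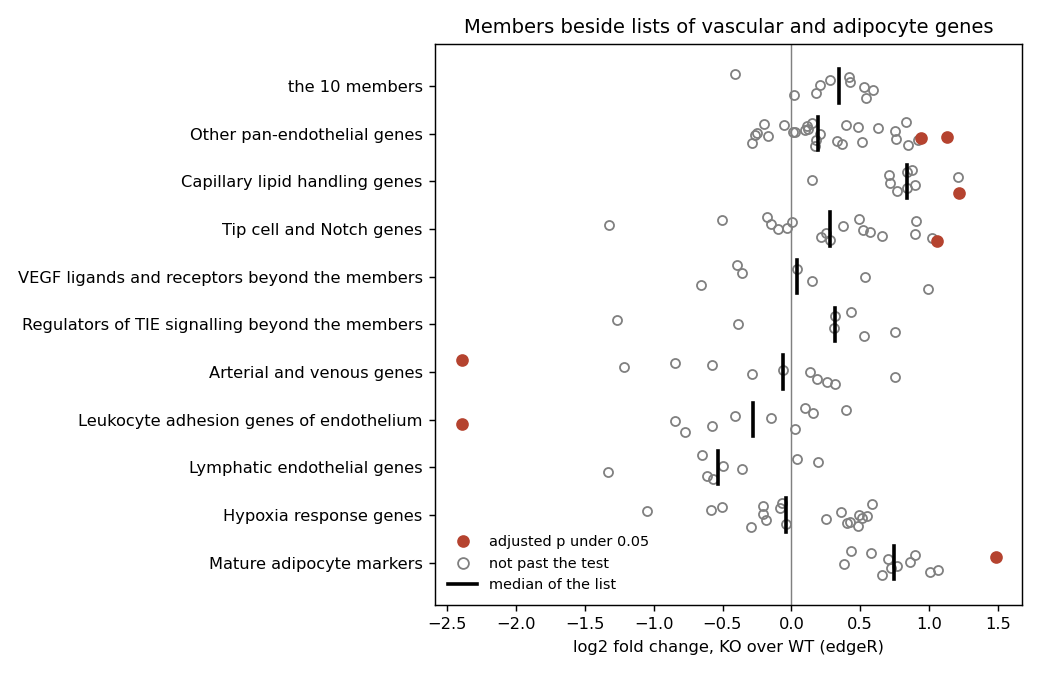
Log2 fold change of KO over WT for the members and for 10 lists of vascular, hypoxia and adipocyte genes, 1 point per gene, with the list median as a bar and filled points for an adjusted p under 0.05. The members' median is 0.35 with no filled point, and Sele, the filled point at the left, belongs to 2 lists.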

How the data were processed

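Per the labels' protocols, iWAT libraries were poly(A)-selected and made with a stranded Illumina kit. Estimated counts, 1 column per library and not scaled, make up the deposited table. The submitters' processing notes name fastp, featureCounts, GRCm38 and GRCm39 for the whole series, so the quantifier and build of this table are not given in the sources used here. Symbols came from GENCODE M21 names (26372 of 33200 identifiers, 79.4%).

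Counts were rounded and tested with edgeR 4.0.16 in R 4.3.3 (TMM, filterByExpr, robust quasi-likelihood F-test, no covariate, two-sided, Benjamini-Hochberg over 16656 genes, threshold 0.05). The SE is the log2 fold change divided by the square root of F. A single count was worth 0.0466 to 0.0574 CPM. DESeq2 1.42.0, limma-voom (limma 3.58.1), other scalings, filters and thresholds, replicate blocks and fits without each library in turn were alternatives. Sums and ratios had exact permutation tests. The tests were checked on simulated counts.

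Named genes were Nrep, the members and, from each list, members past the test or else the most expressed and most different ones. A floor on mean CPM applied to the most different ones. The text names these for the vascular lists it discusses. Tnip2, Cxcr4, Prox1, Car9, Pdgfrb, Acta2, Fli1, Clec14a, Esm1 and Apln were added after their values were seen. Members and lists were chosen with earlier results of these data known. Libraries are described as biological replicates.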

Additional observations from a re-analysis of the deposited data

How the results depend on the processing

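The count of genes past the test (171, with 144 higher and 27 lower in KO) depended on the setting. DESeq2 gave 1823 (1223 higher, 600 lower), limma-voom 16 (15 and 1), no filter on low counts 1370 (928 and 442), and thresholds of 0.10 and 0.01 gave 1378 and 1. Upper-quartile scaling gave 218 higher genes and library totals alone 49 lower ones. In the 6 fits that left out 1 library the count ran from 1 to 4221 (higher in KO, 0 to 2410, and lower, 1 to 1811) with 4221 without KO replicate 2, 334 without WT replicate 3 and 1 to 3 without any of the other 4. The count of members past the test was 0, against 2 in DESeq2, 1 without a filter (Kdr, adjusted p = 0.0348), 2 at 0.10, and 0 to 4 when 1 library was left out, with 4 (Cdh5, Kdr, Flt1, Angpt1) without KO replicate 2. The cause was not tested.

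Direction held in all 15 alternatives for 9 members. Pecam1 was reversed with library totals alone (-0.11) and ran from -0.031 to 0.088 over the fits that left out 1 library. Over those fits the log2 ratio differences ran from -0.16 to 0.086 for Flt1 over Kdr, -0.014 to 0.11 for Kdr over Cdh5 and -0.075 to 0.12 for Flt1 over Cdh5. The replicate block gave 1225 genes (790 higher, 435 lower) and 0 members. Deviations of same-numbered libraries correlated at -0.01, 0.20 and 0.11 across genes. KO replicates 2 and 3 each correlated best with the WT library of the same number, but KO replicate 1 did so with WT replicate 3 (0.14). The labels name no pairs, so the numbers were not taken as pairs. Whether same-numbered libraries shared a batch was not tested. Angpt2 and Angpt1 had the fewest counts among the members, and 3 libraries per genotype limit every comparison.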

Other observations

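For leukocyte adhesion genes of endothelium the median log2 difference, KO over WT, was -0.28, and 4 of 10 lay above 0, where 44.2% of all tested genes did. Of 10 adhesion genes, 1 fell, 0 rose and 9 did not pass in edgeR. DESeq2 called 2 lower, limma-voom called 0, and 4 had an unadjusted p under 0.05. Shares over all tested genes were 1.03% in edgeR, 10.9% in DESeq2 and 22.6% at an unadjusted p under 0.05. The called gene was Sele, which encodes E-selectin on activated endothelium, at 0.459, 0.296 and 0.222 CPM in KO and 1.65, 2.05 and 1.48 CPM in WT (log2 fold change -2.39, edgeR adjusted p = 0.0438), a difference that rests on few counts per library and that passed without KO replicate 2 or WT replicate 3 but in none of the other 4 fits leaving out 1 library. Sele also belongs to the list of 11 arterial and venous genes, where 1 fell and 10 did not pass in edgeR, and DESeq2 called 1 higher and 3 lower and limma-voom 0. Glycam1 of the adhesion list also marks lymph node, and 10 B cell and lymph node markers summed to 890, 1875 and 533 CPM in KO and 1525 to 1606 CPM in WT, with 9 of 10 log2 fold changes below 0 and a median of -0.62. None of these 10 passed in edgeR, DESeq2 or limma-voom or had an unadjusted p under 0.05, and their part in the adhesion and lymphatic values was not tested.

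Of 8 lymphatic endothelial genes, 0 passed in edgeR, with 5 at an unadjusted p under 0.05, 2 in DESeq2 and 0 in limma-voom, and the median log2 fold change was -0.53. The shares over all tested genes were 1.03% in edgeR, 22.6% at an unadjusted p under 0.05 and 10.9% in DESeq2. Lyve1, a lymphatic receptor for hyaluronan that some macrophages also carry, had 118, 83.0 and 144 CPM in KO and 179, 188 and 162 CPM in WT (log2 fold change -0.62, edgeR adjusted p = 0.132). Pdpn, which encodes podoplanin, had 11.6, 8.52 and 16.0 CPM in KO and 29.95, 41.5 and 19.7 CPM in WT (log2 fold change -1.33, edgeR adjusted p = 0.0735). Prox1 had 8.43, 9.31 and 5.89 CPM in KO and 11.3, 12.5 and 11.2 CPM in WT (log2 fold change -0.57, edgeR adjusted p = 0.153). In 4 of the 8 genes, Lyve1, Pdpn, Prox1 and Sema3d, every KO library lay below every WT library, as did 13.1% of all tested genes. Sema3d had a log2 fold change of -0.65 (edgeR adjusted p = 0.0732) and the lymphatic chemokine Ccl21a 0.04 (edgeR adjusted p = 0.953). Among 12 mural cell markers, 0 passed in edgeR or DESeq2 or limma-voom, 3 had an unadjusted p under 0.05, and their sum was 1207 to 1314 CPM in KO and 1102 to 1195 CPM in WT. Their log2 fold changes were above 0 in 8 and below 0 in 4, with a median of 0.15, where 44.2% of all tested genes were above 0. Rgs5, Mcam and Des of that list had log2 fold changes of 0.55, 0.18 and 0.55. Pdgfrb and Acta2 lay the other way, at -0.41 and -0.35 (edgeR adjusted p = 0.309 and 0.336). Des also belongs to the list of skeletal muscle markers, and had 79.7, 52.6 and 75.7 CPM in KO and 49.1, 55.0 and 37.8 CPM in WT. The part of muscle RNA in the mural values was not tested.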
